A study of Mus musculus with 4 samples.

Results

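Nitric oxide and cyclic GMP signalling was described through 10 genes in poly(A) RNA libraries of the mouse lateral habenula. These were the nitric oxide synthase gene Nos1, the soluble guanylate cyclase subunit genes Gucy1a1, Gucy1a2 and Gucy1b1, the cGMP-dependent kinase genes Prkg1 and Prkg2, the kinase substrate gene Mrvi1, and the phosphodiesterase genes Pde1a, Pde2a and Pde5a. They were found by matching gene symbols to the 53465 Ensembl identifiers of the deposited count matrix. All 10 were found, and all 10 were among the 17528 identifiers with enough counts to be tested. The list was drawn up with the isolated against group-housed fold changes of these same libraries already known. The values of its members are therefore given as a description. Counts of members that passed a threshold are printed beside those of all genes and are no test of the list.

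The series compared C57BL/6 mice kept in groups with C57BL/6 mice kept in social isolation, with 2 libraries in each group. Sex, age, how long the mice were isolated and whether a library came from 1 animal or a pool were not stated in the sources used here. All p-values therefore measure only the spread between these libraries, which may be technical. Total counts ran from 20897605 to 26428152 per library. Levels are given in CPM, the share of each library that a gene takes, on effective library sizes scaled by TMM. Markers of the lateral habenula were present in every library (6 of 6 markers with counts in all 4), with a summed level of 1277 to 1360 CPM in group-housed and 1235 to 1402 CPM in isolated libraries. Markers of the other regions and cell types listed below were also present in every library. Medial habenula markers summed to 1184 to 1287 and 1635 to 1657 CPM, and thalamus markers to 1683 to 1730 and 1482 to 1652 CPM. Presence of the markers therefore does not set the tissue apart from its neighbours.

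Nitric oxide is a gas made from arginine by neuronal nitric oxide synthase when calcium enters a neuron, commonly through NMDA receptors to which the synthase is tethered. It diffuses to a heterodimer of an α and a β subunit, soluble guanylate cyclase, which then makes cyclic GMP. Cyclic GMP activates kinases, gates ion channels and regulates phosphodiesterases, and phosphodiesterases end the signal by cleaving it. In the brain the pathway is known as a modulator of transmitter release and synaptic plasticity.

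Transcripts of the main cyclase heterodimer and of Pde1a lay higher in the isolated libraries, and Mrvi1 transcripts lay lower. Gucy1a1 was 1.29-fold, Gucy1b1 1.16-fold and Pde1a 1.37-fold of the group-housed level, and Mrvi1 was 0.570-fold. For these 4 genes both isolated libraries stood outside the range of the group-housed ones. For the other 6, Nos1, Gucy1a2, Prkg1, Prkg2, Pde2a and Pde5a, the groups overlapped. Both isolated libraries were above both group-housed ones for 3 of 10 members and below them for 1 of 10. Over all tested genes the same orders held for 17.4% and 16.3%. None of the 10 passed an adjusted p of 0.05 in edgeR's quasi-likelihood test, which called 0.0114% of all tested genes. DESeq2 called 2 of the 10, Gucy1a1 and Pde1a, both as higher, beside 0.359% of all genes that it tested (0.29% higher and 0.0691% lower). The members were chosen with their fold changes known, so a share above that of all genes can come from the choice alone. These counts are therefore no test of the list, and nothing is read from them. The median log2 fold change of the members was -0.0063, beside 0.00331 over all tested genes. In bulk tissue, fewer cells of a type and less RNA per cell cannot be told apart.

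**Figure D1:**
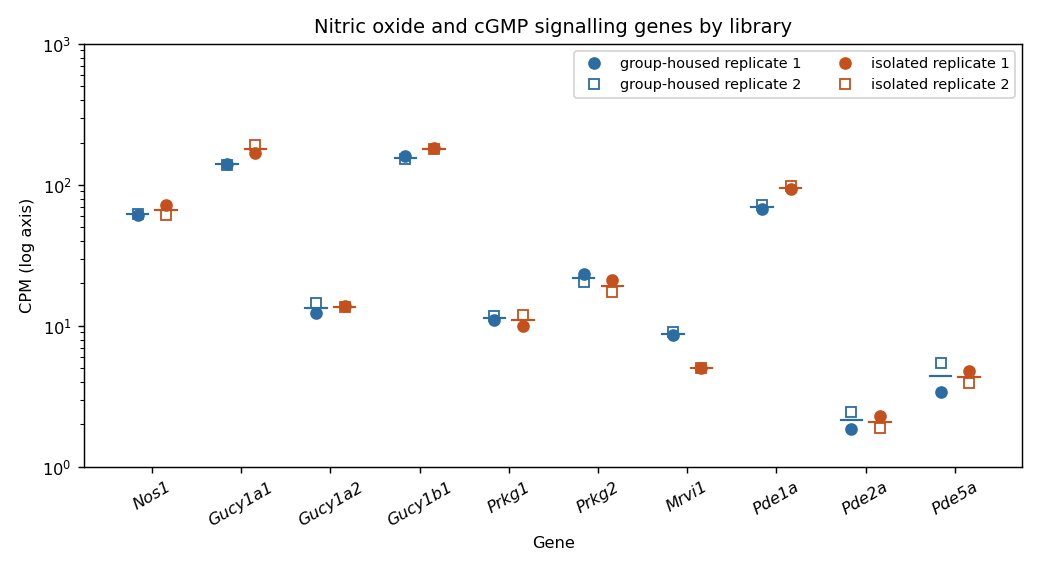
Level of each of the 10 genes in the 4 libraries, in CPM on a log axis, with group-housed libraries in blue and isolated libraries in orange. Filled circles are replicate 1, open squares replicate 2, and short bars the group means. The Mrvi1 points of the isolated libraries (4.99 and 5.02 CPM) lie below the group-housed ones (8.58 and 8.99 CPM), and the levels of the 10 genes span from 1.85 CPM (Pde2a) to 192 CPM (Gucy1a1).

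The levels of the members differed widely when set per kilobase of annotated exon, as CPM per kilobase (RPKM). Gucy1b1 was highest with a mean of 42.9 RPKM over the 4 libraries (range 38.9 to 46.3). It was followed by Gucy1a1 at 23.0 (19.8 to 27.6), Pde1a at 13.7 (11.3 to 16.3), Nos1 at 5.78 (5.52 to 6.45), Prkg2 at 3.84 (3.26 to 4.33) and Gucy1a2 at 2.04 (1.86 to 2.18). The ranges of these neighbours in the order did not overlap. Prkg1 at 1.03 RPKM (0.915 to 1.11) and Mrvi1 at 1.01 (0.731 to 1.32) overlapped, as did Pde5a at 0.448 (0.347 to 0.558) and Pde2a at 0.345 (0.301 to 0.399). The place of Pde2a depends on how exons shared with another gene are treated: on its unshared bases alone it was 0.844 to 1.12 RPKM, above the range of Pde5a and overlapping those of Prkg1 and Mrvi1. Gucy1b1 and Gucy1a1, of the receptor of nitric oxide, thus had more transcript per length than the neuronal synthase, and the kinases had less than either. The third receptor gene, Gucy1a2, lay below Nos1 and Prkg2. How far Gucy1b1 exceeded Nos1 depended on the length used. The ratio was 6.94 to 8.30 per exon length and 3.48 to 4.16 per longest coding transcript. Per length of the longest coding transcript the top 4 kept their order, while Gucy1a2 at 6.05 RPKM stood above Prkg2 at 4.15, and the ranges of Prkg2 and Prkg1 (3.93) overlapped.

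Nos1 encodes the neuronal synthase. It measured 61.7 and 62.4 CPM in group-housed and 71.9 and 61.5 CPM in isolated replicates 1 and 2. The means were 62.1 ± 0.518 and 66.7 ± 7.37 CPM (SD, n = 2 per group), and the log2 fold change was 0.10 (SE 0.08). One isolated library lay above the group-housed pair and the other just under it, so the groups overlapped. Leaving out isolated replicate 1 gave -0.01, and leaving out isolated replicate 2 gave 0.21. Its GRCm38 position is chr5:117781032-117958840, plus strand. An antisense gene, Gm26995, covers 2.4% of its exon bases and held 0 or 1 count per library.

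Gucy1a1 encodes the α1 subunit of soluble guanylate cyclase. It measured 142 and 138 CPM in the group-housed and 169 and 192 CPM in the isolated replicates. Both isolated libraries were higher, and they differed from each other by more than the group-housed pair did. The means were 140.0 ± 2.73 and 181 ± 16.1 CPM (SD, n = 2 per group), a log2 fold change of 0.37 (SE 0.07). Leaving out isolated replicate 2 gave 0.27, and leaving out isolated replicate 1 gave 0.46. The microRNA gene Mir7010 shares 1 exon base with Gucy1a1 and held 0 counts in all 4 libraries.

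Gucy1b1 encodes the β1 subunit, the haem-binding partner that every active heterodimer in brain needs. It measured 160.2 and 153 CPM in the group-housed and 182 and 179.85 CPM in the isolated replicates. The isolated libraries were again both higher, here with little spread between them. The means were 156 ± 5.36 and 181 ± 1.35 CPM (SD, n = 2 per group), a log2 fold change of 0.21 (SE 0.06), which ran from 0.17 to 0.25 when 1 library was left out. Gucy1b1 stood at or above 92.6% of all tested genes in mean CPM and Gucy1a1 at or above 92.0%.

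Gucy1a2 encodes the alternative α2 subunit, which a scaffold of synapses can bind. It measured 12.4 and 14.5 CPM in group-housed and 13.8 and 13.6 CPM in isolated replicates, so the isolated pair lay within the group-housed range. A log2 fold change of 0.03 (SE 0.12) resulted. Its sign depended on the library left out, with -0.08 when group-housed replicate 1 was dropped and 0.14 when replicate 2 was. Per exon length, Gucy1a2 made up 8.38 and 9.90% of the α subunit transcripts (Gucy1a1 plus Gucy1a2) in group-housed and 7.89 and 6.93% in isolated replicates. Both isolated shares were lower than both group-housed ones. With Gucy1a2 itself at a log2 fold change of 0.03, this restates the higher Gucy1a1, a member chosen with its fold change known. Per length of the longest coding transcript the shares were 15.5 and 18.0% against 14.6 and 13.0%. The ratio of Gucy1a1 to Gucy1b1 per exon length was 0.499 and 0.510 in group-housed and 0.525 and 0.602 in isolated libraries, so the α1 transcript stayed below the β1 transcript in all 4.

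Gucy1a1 and Gucy1b1 are neighbours, both transcribed from the minus strand, at chr3:82092427-82145789 and chr3:82032006-82074689 (GRCm38). They are 17.7 kb apart, with 0 annotated genes lying wholly between them. Their promoter windows are shown because these 2 neighbours lay higher together, beside those of Pde1a, which also lay higher, and Mrvi1, which lay lower. The windows come from RefSeq (GRCm38.p6) and run 5′ to 3′ from 250 bases before to 50 bases after an annotated start. Where a gene has several starts the window nearest the GENCODE gene start was taken. Windows were found for 9 of the 10 members, all but Prkg2. Capitals mark matches on either strand to 4 motifs. These are the GC box GGGCGG, the cyclic AMP response element half-site TGACG, the TATA box TATAAA and the E-box form CAGCTG.
Gucy1a1, chr3:82145601-82145900, minus strand: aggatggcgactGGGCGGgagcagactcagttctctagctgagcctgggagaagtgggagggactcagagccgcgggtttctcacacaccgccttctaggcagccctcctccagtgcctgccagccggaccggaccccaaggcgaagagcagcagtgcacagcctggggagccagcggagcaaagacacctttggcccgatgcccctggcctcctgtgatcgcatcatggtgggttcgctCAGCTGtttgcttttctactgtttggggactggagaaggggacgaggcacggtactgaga
Gucy1b1, chr3:82074662-82074961, minus strand: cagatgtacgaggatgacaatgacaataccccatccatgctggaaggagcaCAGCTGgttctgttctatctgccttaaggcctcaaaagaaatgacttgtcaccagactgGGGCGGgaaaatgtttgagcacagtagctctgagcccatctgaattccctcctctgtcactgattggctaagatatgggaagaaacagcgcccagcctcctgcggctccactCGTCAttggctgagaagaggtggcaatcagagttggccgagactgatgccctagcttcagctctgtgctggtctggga
Pde1a, chr2:80129363-80129662, minus strand: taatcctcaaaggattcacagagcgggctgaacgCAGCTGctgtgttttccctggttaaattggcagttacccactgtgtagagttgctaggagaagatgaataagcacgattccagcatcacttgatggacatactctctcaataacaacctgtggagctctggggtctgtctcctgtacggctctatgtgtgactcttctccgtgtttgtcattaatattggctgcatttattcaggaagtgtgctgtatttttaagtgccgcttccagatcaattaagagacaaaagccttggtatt
Mrvi1, chr7:110982412-110982711, minus strand: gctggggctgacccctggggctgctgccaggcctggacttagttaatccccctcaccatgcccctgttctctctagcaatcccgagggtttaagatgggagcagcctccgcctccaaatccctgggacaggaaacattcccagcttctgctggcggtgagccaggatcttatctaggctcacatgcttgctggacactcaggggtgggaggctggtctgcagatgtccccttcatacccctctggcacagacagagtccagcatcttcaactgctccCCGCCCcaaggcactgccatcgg

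The E-box form CAGCTG was found in the windows of Gucy1a1 (from position -10 relative to the start), Gucy1b1 (-199) and Pde1a (-216). These letters were not in the Mrvi1 window. Of all 32851 RefSeq windows of this length, 16.3% hold them. Other forms of the E-box (CANNTG, where N is any base) were not searched. The Mrvi1 window holds such forms, among them CACATG and CAGATG. The GC box was found in Gucy1a1 (-238), Gucy1b1 (-140) and Mrvi1 (28), and in 35.7% of all windows. The half-site was found in Gucy1b1 only (-28, reverse strand) among the 4 windows shown, and in 20.8% of all windows. None of the 4 windows held the TATA box, which 13.6% of all windows do. No match overlapped another in these windows. The G and C content was 62.3% for Gucy1a1, 52.3% for Gucy1b1, 44.3% for Pde1a and 60% for Mrvi1, beside a median of 52.7% over all windows. These matches depend on the start taken. The other Gucy1a1 window (chr3:82145024-82145323) and the other Mrvi1 window (chr7:110946138-110946437) held 0 matches to these motifs. Of the other Pde1a windows, those at chr2:80128922-80129221 and chr2:79908350-79908649 each held 0 matches to CAGCTG and 1 TATA box. The window at chr2:80038853-80039152 held 2 matches to CAGCTG, 1 half-site and 0 TATA boxes. A match is a description of the letters, and binding was not measured.

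Prkg1 encodes the cytosolic cGMP kinase, which also dominates in smooth muscle. It measured 11.0 and 11.7 CPM in group-housed and 9.94 and 12.05 CPM in isolated replicates. The isolated pair spanned the group-housed range. Their log2 fold change of -0.05 (SE 0.14) became 0.08 when isolated replicate 1 was dropped and -0.19 when replicate 2 was.

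Prkg2 encodes the membrane-anchored kinase. It measured 23.3 and 20.5 CPM in group-housed and 21.1 and 17.5 CPM in isolated replicates. The lowest value was in isolated replicate 2, and isolated replicate 1 lay between the group-housed libraries. Prkg2 gave a log2 fold change of -0.17 (SE 0.12), which became -0.04 when isolated replicate 2 was dropped and -0.32 when replicate 1 was. The share of Prkg1 among both kinase transcripts depended on the length used. Per exon length it was 19.0 to 22.1% in group-housed and 18.9 to 25.4% in isolated libraries, and per longest coding transcript 45.3 to 50.02% and 45.1 to 54.6%.

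Mrvi1 (ENSMUSG00000005611) encodes the protein that links a cGMP kinase to the inositol trisphosphate receptor of calcium stores. It measured 8.58 and 8.99 CPM in group-housed and 4.99 and 5.02 CPM in isolated replicates, from 176, 231, 131 and 133 counts. The isolated libraries were both lower, and within each group the libraries lay close together. The means were 8.78 ± 0.289 and 5.01 ± 0.0236 CPM (SD, n = 2 per group). The log2 fold change was -0.81 (SE 0.15), a value that helped to choose the gene. It ran from -0.84 to -0.79 when 1 library was left out. Its position is chr7:110868266-110982461, minus strand. An antisense gene, Gm16336, covers 1.6% of its exon bases and held 0 counts in all 4 libraries. The strand setting of the counting was not stated in the sources used here.

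Pde1a encodes a phosphodiesterase switched on by calcium and calmodulin that cleaves both cyclic GMP and cyclic AMP. It measured 67.9 and 71.7 CPM in group-housed and 92.9 and 98.0 CPM in isolated replicates. The isolated libraries were both higher, with a gap between the groups wider than the spread within either. The means were 69.8 ± 2.72 and 95.5 ± 3.61 CPM (SD, n = 2 per group), a log2 fold change of 0.45 (SE 0.06). It ran from 0.41 to 0.49 when 1 library was left out. Its position is chr2:79834453-80129458, minus strand. No exon of another annotated gene overlaps it. Per exon length Pde1a made up 92.6 to 94.6% of the summed Pde1a, Pde2a and Pde5a transcripts in group-housed and 94.75 to 95.8% in isolated libraries, with Pde2a set on its full exon length.

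Pde2a encodes a phosphodiesterase that cyclic GMP itself stimulates. It measured 1.85 and 2.45 CPM in group-housed and 2.29 and 1.89 CPM in isolated replicates, from 38, 63, 60 and 50 counts. The isolated pair lay within the group-housed range. With each library dropped in turn (group-housed 1 and 2, then isolated 1 and 2), its log2 fold change of -0.05 (SE 0.26) became -0.23, 0.16, -0.20 and 0.07. The level needs care, because another protein-coding gene on the same strand, Gm45837, covers 64.3% of the exon bases of Pde2a (3955 of 6149). Gm45837 held 0 counts in 3 libraries and 1 count in isolated replicate 2. How reads in shared exons were assigned was not stated in the sources used here. Set on the 2194 unshared bases alone, the level was 0.844 to 1.12 RPKM.

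Pde5a encodes a phosphodiesterase specific for cyclic GMP, the target of sildenafil. It measured 3.41 and 5.49 CPM in group-housed and 4.76 and 3.97 CPM in isolated replicates. The group-housed libraries held both the lowest and the highest value. In the same order of dropped libraries, its log2 fold change of -0.04 (SE 0.24) became -0.33, 0.35, -0.18 and 0.08. A difference was not detectable for Pde2a or Pde5a at 38 to 141 counts per library. A gene on the opposite strand, 4930447N08Rik, shares 55 bases (0.6%) of the Pde5a exons and held 9 to 15 counts.

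**Figure D2:**
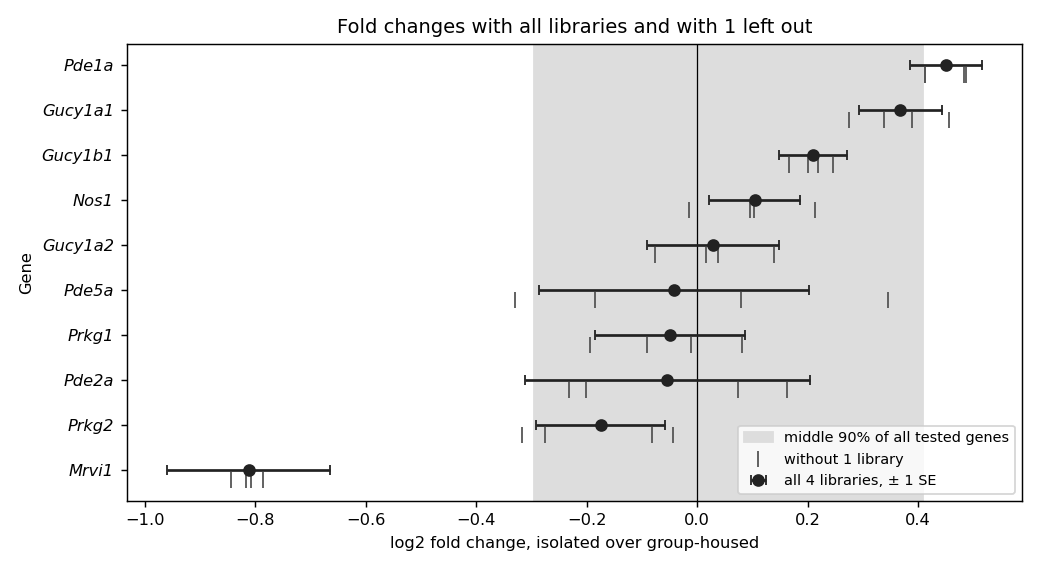
The log2 fold change (isolated over group-housed) of each member with all 4 libraries (points, bars ± 1 SE) and with each library left out in turn (ticks), over the middle 90% of all tested genes (grey, -0.30 to 0.41). The points of Mrvi1 (-0.81) and Pde1a (0.45) lie outside the grey band, and the ticks of Nos1, Gucy1a2, Prkg1, Pde2a and Pde5a fall on both sides of 0.

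The pathway holds other genes that the member list leaves out, and 68 of these were listed in 5 groups by role. Of them 51 had enough counts to be tested. In edgeR's quasi-likelihood test 0 of the 51 passed an adjusted p of 0.05 in either direction. At an unadjusted p under 0.05 the test gave 3 of 51 as higher and 3 as lower, beside 2.83% and 2.26% of all tested genes (5.09% in either direction). DESeq2 called 2 as higher (Npr1 and Kcnma1) and 0 as lower, beside 0.29% and 0.0691% of all genes that it tested. It gave no adjusted p for some of the 51, among them Nos2. These lists too were chosen with earlier results of these data known, so the counts are no test of them. Of the 51 genes 30 had a positive and 21 a negative log2 fold change, with a median of 0.04 beside 0.00331 over all tested genes.

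Of 16 other guanylate cyclases and their peptides 9 were tested, and 8 of these had a positive log2 fold change. Their median of 0.21, beside 0.00331 over all tested genes, was the value of Npr3 (SE 0.40), which held 8 to 16 counts per library. Guca1b (0.75, SE 0.42) held 8 to 20 counts. Npr2 (0.06, SE 0.06), Gucy2e (0.10, SE 0.13) and Gucy2f (0.08, SE 0.25) lay near 0. These 5 are named for their values. Npr1 encodes the receptor cyclase for atrial natriuretic peptide, a membrane enzyme that makes cyclic GMP without nitric oxide. It measured 77.3 and 83.8 CPM in group-housed and 104 and 109 CPM in isolated replicates. Both isolated libraries were higher, with a log2 fold change of 0.40 (SE 0.07, edgeR adjusted p = 0.193, DESeq2 adjusted p = 0.0153). Without isolated replicate 1 its edgeR adjusted p was 0.0191. That fit sets 1 isolated library against 2 group-housed ones, takes the spread within groups from the group-housed pair alone and assumes that the lone library varies alike. Nppa, which encodes that peptide, measured 12.5 and 13.0 CPM in group-housed and 17.3 CPM in each isolated replicate. Its log2 fold change was 0.44 (SE 0.10, edgeR adjusted p = 0.443). Npr1 and Nppa were named because they had the 2 smallest p of this list, and neither gene passed in edgeR. Nppc, another peptide gene of the list, is named because its order was the opposite. It measured 6.24 and 6.19 CPM in group-housed and 4.88 and 5.29 CPM in isolated replicates. Its log2 fold change was -0.29 (SE 0.16, edgeR adjusted p = 0.979). Antisense genes cover 11.7% of the exon bases of Npr1 (Gm16048) and 61.5% of those of Nppa (Gm13054), and their reads may be included. Guca2b, a guanylin peptide gene named here because of its values, had 0 counts in all 4 libraries, where 3 counts correspond to 0.113 to 0.146 CPM.

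Of 18 other kinase targets and cGMP-gated channels 14 were tested, 9 with a positive and 5 with a negative log2 fold change (median 0.02). Kcnma1 encodes the large-conductance calcium-activated potassium channel, which cGMP kinase phosphorylates. It measured 773 and 760 CPM in group-housed and 979 and 1007 CPM in isolated replicates. Kcnma1 was higher in both isolated libraries, with a log2 fold change of 0.37 (SE 0.08, edgeR adjusted p = 0.328, DESeq2 adjusted p = 0.000208). Genes on the opposite strand cover 6.0% of its exon bases (4930519K11Rik), as they do 18.6% for Qdpr (Gm42413) and 25.2% for Nos3 (Gm15587). Itpr1 encodes the calcium store receptor to which the Mrvi1 protein binds. It measured 184 and 191 CPM in group-housed and 168 and 145 CPM in isolated replicates. Both isolated libraries were lower, with a log2 fold change of -0.26 (SE 0.08, edgeR adjusted p = 0.780). Without isolated replicate 1, which leaves the lower of the isolated values as the only library of its group, the log2 fold change was -0.37 (edgeR adjusted p = 0.0338, with the spread from the group-housed pair alone).

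Of 13 other genes of phosphodiesterase families that act on cyclic GMP, the non-catalytic Pde6d, Pde6g and Pde6h among them, 8 were tested, 3 with a positive and 5 with a negative log2 fold change (median -0.03). Pde1b, the close relative of Pde1a, measured 114 and 120.5 CPM in group-housed and 108 and 94.5 CPM in isolated replicates. The isolated libraries were both lower, the opposite order to that of Pde1a, with a log2 fold change of -0.21 (SE 0.08, edgeR adjusted p = 0.863). Pde6d, whose protein carries prenylated proteins between membranes, gave 0.07 (SE 0.08). Whether Pde1a and Pde1b differ in their response was not tested.

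Of 13 genes of arginine and cofactor supply 12 were tested, 6 in each direction (median -0.01). Qdpr, which regenerates the synthase cofactor tetrahydrobiopterin, measured 340.2 and 312 CPM in group-housed and 273 and 289 CPM in isolated replicates. Its log2 fold change was -0.21 (SE 0.07, edgeR adjusted p = 0.840). Ddah1, which removes a natural synthase inhibitor, measured 129, 137, 129.9 and 98.2 CPM in the same order, and its low value was in isolated replicate 2 alone. Its log2 fold change was -0.22 (SE 0.12, edgeR adjusted p = 0.979). Without isolated replicate 1 it was -0.44 (edgeR adjusted p = 0.0148), a fit in which that low library stands alone for its group and only the group-housed pair gives the spread. Of 8 other synthases and synthase partners all 8 were tested, 4 in each direction (median 0.02). The endothelial synthase gene Nos3 measured 5.61 and 4.55 CPM against 5.90 and 7.21 CPM (0.37, SE 0.19), and the inducible Nos2 0.244 and 0.428 CPM against 0.495 and 0.755 CPM (0.85, SE 0.46). The edgeR adjusted p = 0.979 held for both. Dynll1, a dynein light chain that binds neuronal synthase, had the highest mean level of this group per exon length (29.4 RPKM) and gave -0.11 (SE 0.10). The postsynaptic scaffold gene Dlg4, named after its values were seen, was close behind at 28.7 RPKM, and per longest coding transcript it stood above Dynll1 (111 against 56.4 RPKM).

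**Figure D3:**
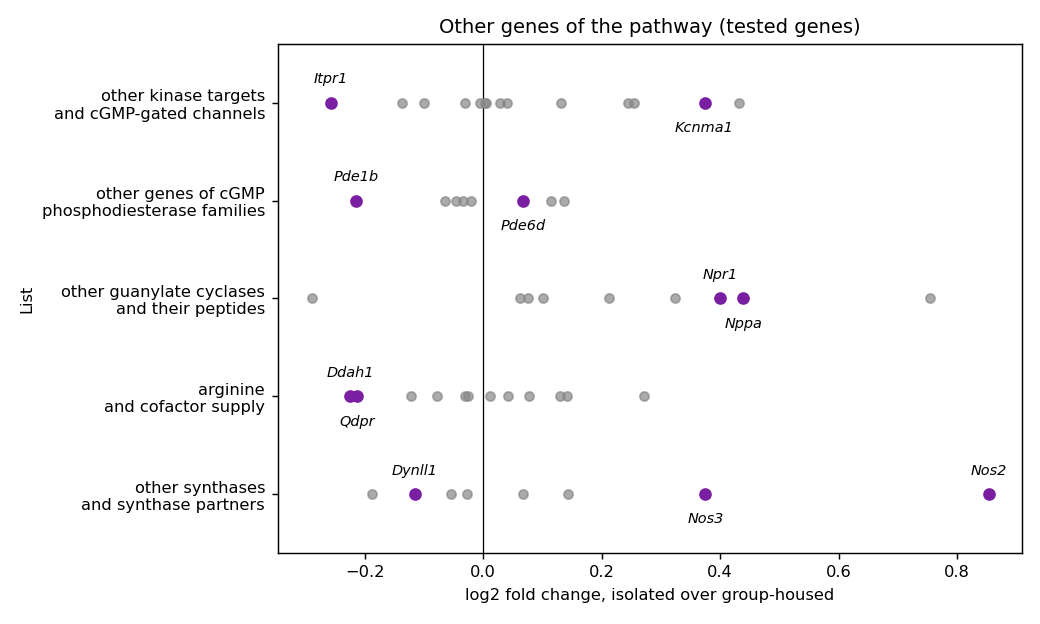
The log2 fold change (isolated over group-housed) of the 51 tested pathway genes outside the member list, 1 point per gene and 1 row per group of genes, with the genes chosen by rule named in purple. Points of the other guanylate cyclases lie mostly to the right of 0 (8 of 9), among them Npr3 and Guca1b at 8 to 20 counts per library. Those of the other 4 groups fall on both sides.

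Markers of neighbouring tissue and other cell types moved beside these values. All 10 medial habenula markers had a positive log2 fold change (median 0.42, range 0.16 to 0.85). Slc5a7 and Chrnb3 of this list were the only 2 of all tested genes that passed in edgeR (adjusted p = 0.0227 for each). The summed level of the list was 1184 to 1287 CPM in group-housed and 1635 to 1657 CPM in isolated libraries. Both isolated sums were above both group-housed ones. Gucy1a1, Gucy1b1, Pde1a, Npr1 and Kcnma1, picked out with their values known, had this order, as did 17.4% of all tested genes. The summed hippocampus and cortex markers and the summed ependymal markers below share it. Of 10 thalamus markers 9 had a negative log2 fold change (median -0.44), with summed levels of 1683 to 1730 and 1482 to 1652 CPM. Both isolated sums were below both group-housed ones here. Mrvi1, Itpr1 and Pde1b, also picked out with their values known, had this order, as did 16.3% of all tested genes. The summed oligodendrocyte, astrocyte and microglia markers below share it. Among 9 hippocampus and cortex markers 7 were tested, 4 of them positive (median 0.30), with summed levels of 392 to 402 and 439 to 477 CPM. The part of these markers in the results above was not tested.

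Prkg1, Mrvi1, Pde5a and the cyclase subunits are also genes of vascular smooth muscle. Of 11 smooth muscle and pericyte markers 5 were positive and 6 negative (median -0.02), and their summed level was 174 to 185 CPM in group-housed and 167 to 189 CPM in isolated libraries. The groups overlapped for these markers. The part of smooth muscle in the values of these genes was not tested. Endothelial markers overlapped too, at 125.5 to 128 and 121 to 139 CPM (8 markers, 4 positive). All 8 oligodendrocyte markers were negative (median -0.21), at 11930.0 to 12860.0 and 9778 to 11480.0 CPM. Of 8 astrocyte markers 6 were negative (median -0.12), at 4425 to 4785 and 4293 to 4300.0 CPM, and all 6 microglia markers were negative (median -0.12), at 301 to 338.5 and 289.5 to 295 CPM. Ependymal markers (6 of 6 positive, median 0.74) reached 53.5 to 57.9 and 58.0 to 119.5 CPM, the highest in isolated replicate 2. Choroid plexus markers varied within the groups, at 9.41 to 117 and 28.7 to 36.0 CPM (5 of 6 tested, 4 negative). No marker of these lists was at 0 in any library.

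**Figure D4:**
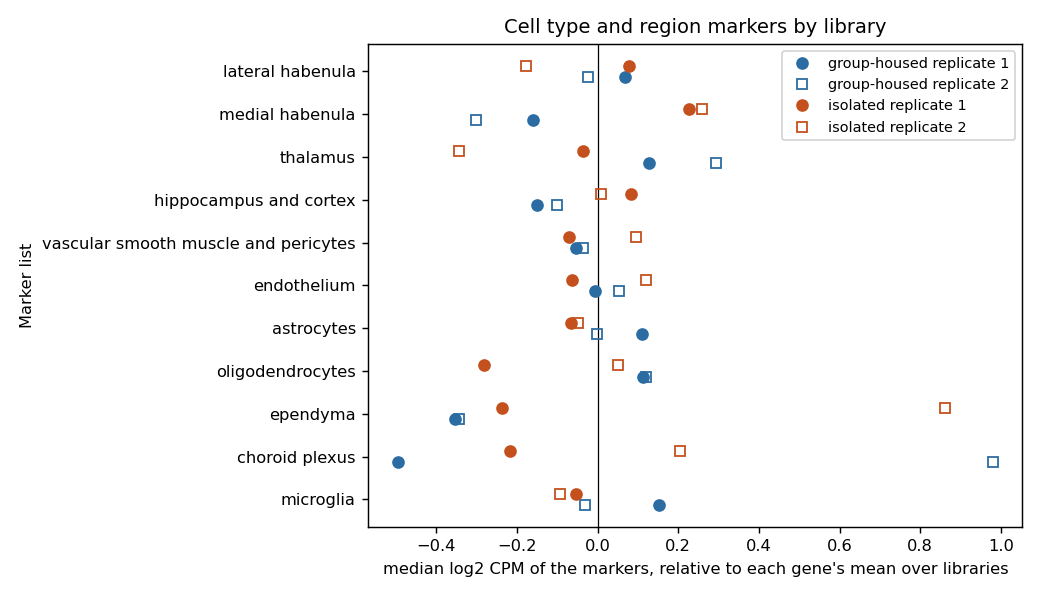
Median log2 CPM of each marker list in each library, centred on the mean of each gene, with group-housed libraries in blue and isolated libraries in orange (filled circles replicate 1, open squares replicate 2). The medial habenula list separates the groups (-0.16 and -0.30 against 0.23 and 0.26), and so does the thalamus list in the other direction (0.13 and 0.29 against -0.04 and -0.35). The hippocampus and cortex, ependyma, oligodendrocyte, astrocyte and microglia lists also separate them, and the lateral habenula, smooth muscle, endothelium and choroid plexus lists overlap.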

How the data were processed

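Poly(A) RNA of 4 libraries was analysed, 2 per group, with groups taken from the labels. The authors deposited raw counts per Ensembl gene, which were used for every test. The authors also deposited a normalised signal, equal to each count times 1 constant per library (0.0499, 0.0400, 0.0393 and 0.0387), used only for a scaling alternative. Per the submitters' processing notes, CASAVA, TopHat2 2.1.1, HTSeq and edgeR were used with GRCm38, while annotation release and strand setting were not stated there. Trizol and a stranded Illumina mRNA kit were used, per the labels' protocols.

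GENCODE vM21 (GRCm38) gave a symbol for 53360 of 53465 identifiers, coordinates and exon lengths. Genes were tested with edgeR 4.0.16 (R 4.3.3), TMM scaling, filterByExpr and a 2-sided quasi-likelihood test without covariates, adjusted by Benjamini-Hochberg over 17528 genes at 0.05. Standard errors are the log2 fold change over the square root of F. RPKM values are CPM per kilobase of the union of exons. The procedure was tested on simulated data. Replicates differed by more than sampling noise (chi-square per degree of freedom 5.13 and 7.57).

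The members and all lists were chosen with earlier results of these data known. Named were all members and, in each pathway list, the gene with the highest level per length, the 2 with the smallest p, genes that passed, and genes whose exons overlap a member. Alternatives were DESeq2 1.42.0, its size factors, 2 other filters, each library left out, a replicate block and the deposited constants.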

Additional observations from a re-analysis of the deposited data

How the results depend on the processing

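With all 4 libraries the edgeR test called 2 genes of all tested. DESeq2 called 52 (42 higher, 10 lower), no filter on low counts gave 15, and leaving out 1 library gave 1 to 221, the highest without isolated replicate 1 and the lowest without either group-housed replicate. For the other pathway genes 0 became 2 with DESeq2 (Npr1 and Kcnma1) and 0 to 3 without 1 library (Npr1, Ddah1 and Itpr1 without isolated replicate 1, a fit with 1 library in that group, assumed to vary like the group-housed pair). The members' median log2 fold change of -0.0063 ran from -0.079 to 0.15 without 1 library, the highest without group-housed replicate 2, and changed sign in 5 of 10 alternatives. The cause of these shifts was not tested. Gucy1a1, Gucy1b1, Pde1a, Prkg2 and Mrvi1 kept their direction in all 10 alternatives. The deposited constants, an alternative chosen after seeing the data, and DESeq2 size factors each called 2 genes. Pde2a and Pde5a did not pass the filter of a mean of 5 CPM and have no value there. Replicate numbers do not pair the samples by any label. With the replicate block 64 genes were called, and 1 other pathway gene (Npr1). Deviations of same-numbered libraries correlated with r = 0.141 over genes. Pde2a and Pde5a had the fewest counts of the members, 38 to 141 per library, and the spread between libraries limits them too. Intervals on counts would cover counting error only.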

Other observations

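The genes on either side of the Gucy1b1 and Gucy1a1 pair on chromosome 3 were picked out after the pair's values were seen. Within 500 kb of the pair 4 other genes had enough counts to be tested. Ctso, a lysosomal cysteine protease gene, measured 54.4 ± 3.47 CPM in group-housed and 49.4 ± 4.10 CPM in isolated libraries (SD, n = 2 per group), a log2 fold change of -0.14. Map9, a microtubule-associated protein gene, measured 94.2 ± 1.99 and 96.9 ± 8.73 CPM (0.04). Npy2r, a neuropeptide Y receptor gene, measured 8.003 ± 1.12 and 7.15 ± 0.982 CPM (-0.17), and Tdo2, which degrades tryptophan, 0.428 ± 0.0544 and 0.398 ± 0.132 CPM (-0.12). The edgeR quasi-likelihood adjusted p-values of these 4 genes lay between 0.979 and 0.9998. The log2 fold changes of 0.21 and 0.37 of Gucy1b1 and Gucy1a1 had the same sign as that of Map9 (SE 0.07). They were opposite in sign to those of Ctso (SE 0.08), Npy2r (SE 0.17) and Tdo2 (SE 0.45). Whether the pair differs from its neighbours was not tested.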
